A study of Mus musculus with 6 samples.

Results

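Accessibility at 10 genes that mark fibroblasts was compared between mouse embryonic stem cells with and without Lmna, the gene of the nuclear lamina proteins lamin A and lamin C. The genes were Col1a1, Col1a2, Col3a1, Col5a1, Thy1, Twist1, Prrx1, Postn, Pdgfrb and Lox, and their peaks were all peaks that carry one of these symbols in the authors' deposited table. The rule found 27 of the 65535 listed peaks, at 9 of the 10 genes, and none at Col5a1. Both groups were E14 embryonic stem cells with the Nkx2-5-EmGFP transgene. The control group is labelled WT and has 3 libraries, and the knockout group is labelled Lmna KO and has 3 libraries. Both were kept with leukemia inhibitory factor on mitomycin-treated mouse embryonic fibroblasts, and preplating was used to take these feeder cells away before collection, per the labels. The labels do not say how the knockout was made. They also do not say if replicates were grown apart or come from 1 clone, so the spread behind the deposited p-values may be only technical.

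Fibroblasts build and remodel the connective tissue matrix. Type I and type III collagens, encoded by Col1a1, Col1a2 and Col3a1, form the main fibrils, and Col5a1 encodes a type V collagen chain that helps to start them. Lox encodes lysyl oxidase, which cross-links collagen and elastin, and Postn encodes periostin, a matrix protein. Pdgfrb is a receptor for platelet-derived growth factor on mesenchymal cells, Thy1 is a surface glycoprotein of fibroblasts and some other cells, and Twist1 and Prrx1 are transcription factors of the mesenchyme. These genes are active in embryonic fibroblasts and low or silent in embryonic stem cells, so DNA of remaining feeder cells would add signal at the open sites of these genes. In ATAC-seq a transposase, Tn5, inserts adapters into accessible DNA. The level of a peak is given here as the authors' log2 concentration, a mean over the libraries of a group. What is called the mean log2 concentration is the deposited value for both groups, the log2 of a mean of linear levels. Levels per library are not used here, so it was not tested whether 1 library carried more signal at these genes than another, and the depth of each library is not known. At Lmna itself, as a check of the labels, both peaks with the largest differences were lower in the knockout group of the authors' deposited table, at 6.27 in control against 2.00 in knockout cells (FDR 4.44e-20) and at 4.79 against 0.86 (FDR 4.77e-07), while 2 peaks further upstream were higher (log2 folds 0.61 and 1.52).

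The promoters of these genes ranged from within a listed peak to far from any listed peak. Promoter sequences (250 bases before to 50 after the start, RefSeq, GRCm38.p6, the assembly of mm10) were found for 6 of the 10 genes, in 7 windows because Postn has 2. No window was found for Col1a1, nor for Thy1, Lox and Pdgfrb, which each had a listed peak at a distance of 0 from a start site. Of the 7 windows only that of Col1a2 (chr6:4505368-4505667, plus strand) lay in a listed peak. The window of Prrx1 (chr1:163313601-163313900, minus strand) was 44 bases away from one. The window of Col3a1 (chr1:45311288-45311587, plus strand) was 2143 bases and that of Twist1 (chr12:33957421-33957720, plus strand) 28245 bases from the nearest listed peak. These 4 are printed 5' to 3' because they show the range of distances to a listed peak. Only peaks with a deposited p of at most 0.422 are listed, so a window without a listed peak may still be open. Capitals mark the letters CCAAT on either strand, read as ATTGG on the other strand.
Col1a2: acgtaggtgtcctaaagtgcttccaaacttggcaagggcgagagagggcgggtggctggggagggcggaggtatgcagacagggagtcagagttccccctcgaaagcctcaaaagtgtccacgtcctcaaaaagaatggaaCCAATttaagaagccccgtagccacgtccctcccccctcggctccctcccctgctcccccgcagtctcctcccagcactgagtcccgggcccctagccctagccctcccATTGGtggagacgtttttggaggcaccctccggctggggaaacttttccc
Prrx1: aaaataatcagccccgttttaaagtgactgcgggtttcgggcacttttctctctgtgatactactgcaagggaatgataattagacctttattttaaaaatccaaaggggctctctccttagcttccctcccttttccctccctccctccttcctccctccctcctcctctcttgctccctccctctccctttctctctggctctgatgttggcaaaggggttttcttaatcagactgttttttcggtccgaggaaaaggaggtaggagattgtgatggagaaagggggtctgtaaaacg
Col3a1: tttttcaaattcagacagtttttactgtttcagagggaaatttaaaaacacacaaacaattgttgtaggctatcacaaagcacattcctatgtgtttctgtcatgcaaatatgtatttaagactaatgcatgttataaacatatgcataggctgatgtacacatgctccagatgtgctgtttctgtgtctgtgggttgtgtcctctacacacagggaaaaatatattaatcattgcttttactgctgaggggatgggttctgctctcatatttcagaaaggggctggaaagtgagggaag
Twist1: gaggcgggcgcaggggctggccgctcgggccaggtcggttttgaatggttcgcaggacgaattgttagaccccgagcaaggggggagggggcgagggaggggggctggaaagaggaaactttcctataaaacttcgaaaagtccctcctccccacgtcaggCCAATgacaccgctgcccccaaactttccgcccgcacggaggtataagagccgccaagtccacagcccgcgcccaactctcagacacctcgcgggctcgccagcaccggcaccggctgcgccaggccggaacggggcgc

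The windows differed in base composition. The Col1a2 window had 61% G and C and 13 CpG pairs, and the Twist1 window had 66% and 27. The Col3a1 window had 37.7% and 0 CpG pairs, and the Prrx1 window 47.7% and 6, against medians of 52.7% and 7 over all 32851 promoters in the table. The windows with the most CpG pairs, Col5a1 (34) and Twist1, thus had no listed peak, while the window in a listed peak stood between them and the rest. CCAAT occurred in 3 of the 7 windows (Col1a2, Twist1 and 1 of Postn) and in 37.4% of all promoters. TGANTCA, the AP-1 motif, occurred in 0 of 7 windows and 7.81% of all promoters. CANNTG, the E-box, occurred in 1 of 7 (Col3a1) and 72.3%. Each motif was searched on both strands, and no base is shared by a CCAAT and a TGANTCA match, since the latter had none. A match is a description of letters and not a binding site.

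The deposited folds of the fibroblast gene peaks had both signs. By the FDR of the authors' deposited table, 2 of the 27 peaks were gained and 1 was lost in the knockout cells at a limit of 0.05, and 24 did not pass. Over all listed peaks 16.1% were gained and 2.26% lost. Outside chromosome 14, which holds no member, these shares were 11.8% and 2.42%. Counted by gene, 2 of 9 genes had a gained peak and 1 of 9 a lost one, against 28.8% and 7.19% of the 17625 genes with a listed peak. Deposited log2 folds were positive at 12 member peaks and negative at 15, a positive share of 44.4% against 69.1% of all listed peaks. Their median was -0.40 on the log2 scale (quartiles -0.75 and 0.54), against 0.49 over all listed peaks (quartiles -0.55 and 0.93). Among listed peaks outside chromosome 14, 66.7% of folds were positive, with a median of 0.44. The sign of the member median depended on weak peaks: at or above the median log2 concentration of listed peaks it was 0.205. Of the 7 genes with at least 2 listed peaks, 6 had peaks of both signs. The remaining one, Col3a1, had 3 negative folds, none of which passed. The share of all listed genes with peaks of both signs was not computed. At 20 of the 27 member peaks the 95% interval implied by the deposited p held 0, so most of these signs are uncertain. Only peaks with a deposited p of at most 0.422 are listed, so peaks with smaller differences, at these genes too, are not in any of these counts.

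**Figure D1:**
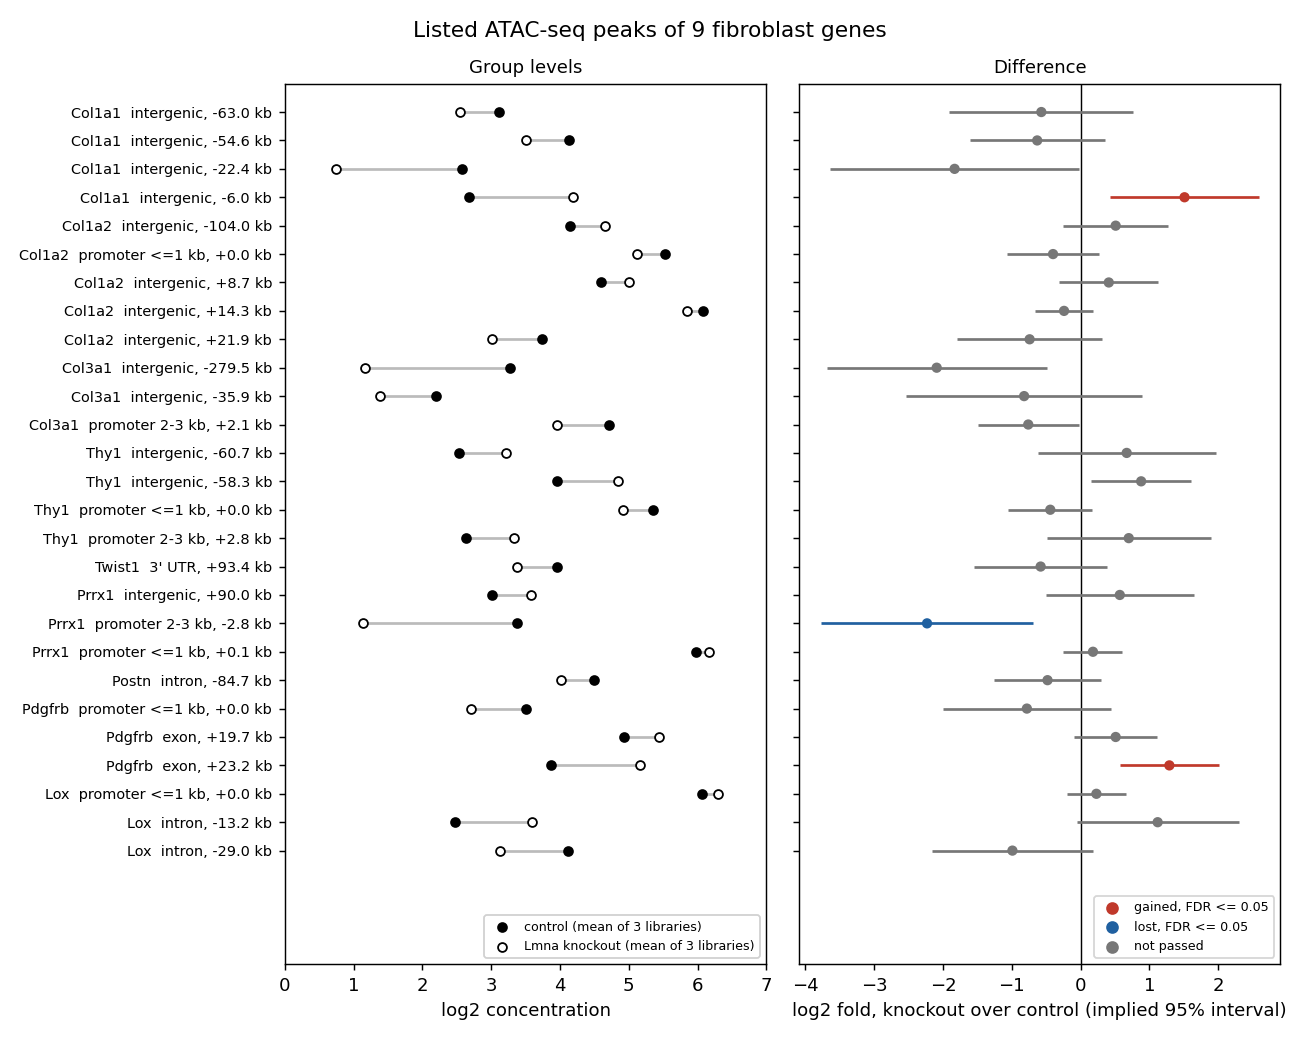
Each row is 1 listed peak of a fibroblast gene, with its location and its distance to the assigned start site. Left, the authors' log2 concentration in control (filled) and knockout (open) libraries. Right, the log2 fold with the 95% interval implied by the deposited p, where red marks the 2 gained peaks, blue the lost one and grey the 24 that did not pass.

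Pdgfrb held the peak with the smallest FDR. At chr18:61068363-61068876 (mm10), in an exon 23163 bases from the start site, the deposited log2 concentration was 3.87 in control and 5.16 in knockout cells. The knockout mean was thus the higher one, with a deposited log2 fold of 1.29 (2.45-fold, FDR 0.00756) and an implied standard error of 0.36, derived from the deposited fold and p by assuming a normal test. A second exonic peak of this receptor gene, chr18:61064869-61066310, had deposited levels of 4.93 and 5.44 and did not pass (log2 fold 0.51, FDR 0.28). The promoter peak of Pdgfrb, chr18:61044959-61045334, leaned the other way in the deposited table, from 3.50 in control to 2.71 in knockout cells, and did not pass either (log2 fold -0.78, FDR 0.433). The gained site of Pdgfrb was therefore inside the gene, and its start site did not share the call.

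Col1a1 held the other gained peak. The peak chr11:94928914-94930263 lies 5961 bases before the gene, inside the long noncoding RNA gene Gm46293 of the RefSeq annotation. Its deposited log2 concentration was 2.68 in control and 4.19 in knockout cells, a log2 fold of 1.51 (2.85-fold, implied standard error 0.55). It passed narrowly, with a deposited FDR of 0.0494. The other 3 Col1a1 peaks lay 22438 to 63029 bases before the gene and had negative deposited log2 folds, -1.83, -0.63 and -0.57, with FDRs of 0.183 to 0.622. The first of these, chr11:94913517-94913786, was weak, with a deposited log2 concentration of 2.58 in control and 0.75 in knockout cells. No listed peak overlapped the Col1a1 gene itself (chr11:94936224-94953042).

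Prrx1, the mesenchymal homeobox gene, held the lost peak. At chr1:163292046-163292260 the deposited log2 concentration was 3.37 in control and 1.14 in knockout cells, a log2 fold of -2.23 (4.69-fold lower, implied standard error 0.79, FDR 0.0416). The table places this peak 2822 bases before the start of a shorter transcript, and it lies within the Prrx1 gene and within the RefSeq gene Gm20471. It was a narrow and weak peak of 215 bases, and only 13.8% of listed peaks had an equal or lower mean concentration. The main promoter peak of Prrx1, chr1:163311679-163313556, was strong and nearly level, at 5.98 in control and 6.16 in knockout cells in the deposited table (log2 fold 0.18, FDR 0.628). The third peak, 90001 bases from the start site, was at 3.01 and 3.58 in the deposited table (log2 fold 0.57, FDR 0.525).

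Within 1000 bases of a start site, 5 fibroblast genes had 1 listed peak each, Col1a2, Thy1, Prrx1, Pdgfrb and Lox. Of these 5 peaks 0 passed, beside 12.7% gained and 0.985% lost among all listed peaks this near a start site, so a count of 0 is near the background. The Col1a2 promoter peak, chr6:4504518-4506436, had a deposited log2 concentration of 5.52 in control and 5.12 in knockout cells (log2 fold -0.40, implied 95% interval -1.06 to 0.26, FDR 0.463). The Thy1 promoter peak, chr9:44042887-44044593, had deposited levels of 5.35 and 4.91 (log2 fold -0.44, implied interval -1.05 to 0.17, FDR 0.368). The Lox promoter peak, chr18:52528191-52530607, had 6.07 and 6.30 (deposited log2 fold 0.23, implied interval -0.20 to 0.66, FDR 0.521). The implied interval of Prrx1 was -0.25 to 0.61 and that of Pdgfrb, the weakest of the 5, -2.00 to 0.44. All 5 intervals held 0, and all 5 deposited folds lay below 0.40, the median of the 12489 listed promoter peaks within 1000 bases of a start site. Of those listed promoter peaks 85.8% had a positive fold, against 2 of these 5. That median, 0.40, lay within the implied intervals of Lox, Prrx1 and Pdgfrb and above those of Col1a2 and Thy1. At the other 5 genes no peak this near a start site was listed.

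**Figure D2:**
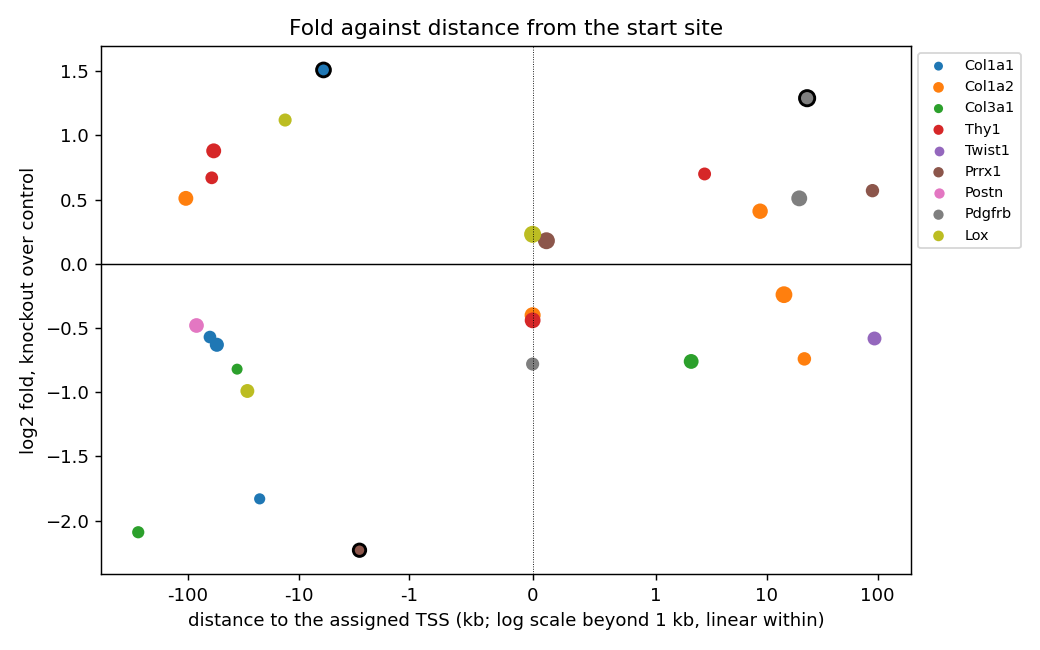
Deposited log2 fold of each member peak against its distance to the assigned start site in kilobases (linear within 1 kb, log scale beyond). Colour marks the gene, dot size the mean log2 concentration, and a black rim the 3 peaks past an FDR of 0.05, none of which lies within 1 kb of a start site.

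The remaining collagen peaks did not pass. Col3a1 had negative folds at all 3 listed peaks in the deposited table. The one nearest to passing, chr1:45031718-45032027, went from 3.27 in control to 1.17 in knockout cells (log2 fold -2.09, FDR 0.0711), but it lies 279511 bases before the start site to which it was assigned. The Col3a1 peak inside the gene, chr1:45313731-45314170, had deposited levels of 4.71 and 3.95 (log2 fold -0.76, FDR 0.173). Col1a2 had 5 listed peaks, and its 4 beyond the promoter had deposited log2 folds of 0.51, 0.41, -0.24 and -0.74 with FDRs of 0.383 to 0.49. The strongest of them, chr6:4550100-4551665, had deposited levels of 6.08 in control and 5.84 in knockout cells. Col1a2, with the most peaks of any member, thus had folds of both signs, and the implied interval of each of its peaks held 0.

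Thy1, Lox, Postn and Twist1 had no changed peak. At Thy1 the peak with the smallest deposited FDR was chr9:43984565-43985074, 58310 bases before the gene, with levels of 3.96 in control and 4.84 in knockout cells (log2 fold 0.88, FDR 0.0984). The other Thy1 peaks away from the promoter also had positive deposited folds, 0.67 and 0.70, while its promoter fold was negative. At Lox, the deposited log2 folds of the peaks beyond the promoter were 1.12 (2.47 in control, 3.59 in knockout cells, FDR 0.214) and -0.99 (4.12 and 3.13, FDR 0.276). Postn and Twist1 each had 1 listed peak in the deposited table, with log2 folds of -0.48 (levels 4.50 and 4.02, FDR 0.453) and -0.58 (levels 3.96 and 3.38, FDR 0.464). The Postn peak overlaps Trpc4 and the Twist1 peak overlaps Hdac9 in the RefSeq annotation, 84696 and 93420 bases from the start sites to which they were assigned.

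Many of the assigned peaks were distant from the fibroblast genes. Of the 27 peaks 13 were annotated as distal intergenic, 5 as promoter within 1 kb, 3 as promoter at 2 to 3 kb, 3 as intron, 2 as exon and 1 as 3' UTR. The intron peaks, assigned to Postn and Lox, and the 3' UTR peak, assigned to Twist1, did not overlap those genes. The intron peaks of Lox overlapped no RefSeq gene. Only 9 of 27 (33.3%) overlapped the gene whose symbol they carry, against 48.5% of listed peaks whose symbol is in RefSeq. These 9 lay at Pdgfrb (3), Prrx1 (2), and Col1a2, Col3a1, Thy1 and Lox (1 each). The other 4 genes, Col1a1, Col5a1, Twist1 and Postn, had 0 listed peaks over the gene, also when peaks assigned to any other gene were counted.

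The size of the difference went with the weakness of the peak. Spearman's correlation between the absolute log2 fold and the mean log2 concentration was -0.71 over the 27 member peaks and -0.60 over all listed peaks, given as a description, since the limit on p removes weak peaks with small folds and peaks share libraries. The 6 strongest member peaks, at or above a log2 concentration of 5, had absolute deposited log2 folds of at most 0.51, and 3 of 6 were positive. Among all listed peaks of that strength 91.1% were positive. Between 3 and 5, 8 of 15 member peaks were positive, against 71.6% of listed peaks, and below 3, 1 of 6, against 36.3%. The positive share of the member peaks was thus lower than that of listed peaks in each class of strength, on small counts that were not tested. The shares of listed peaks by class include chromosome 14.

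**Figure D3:**
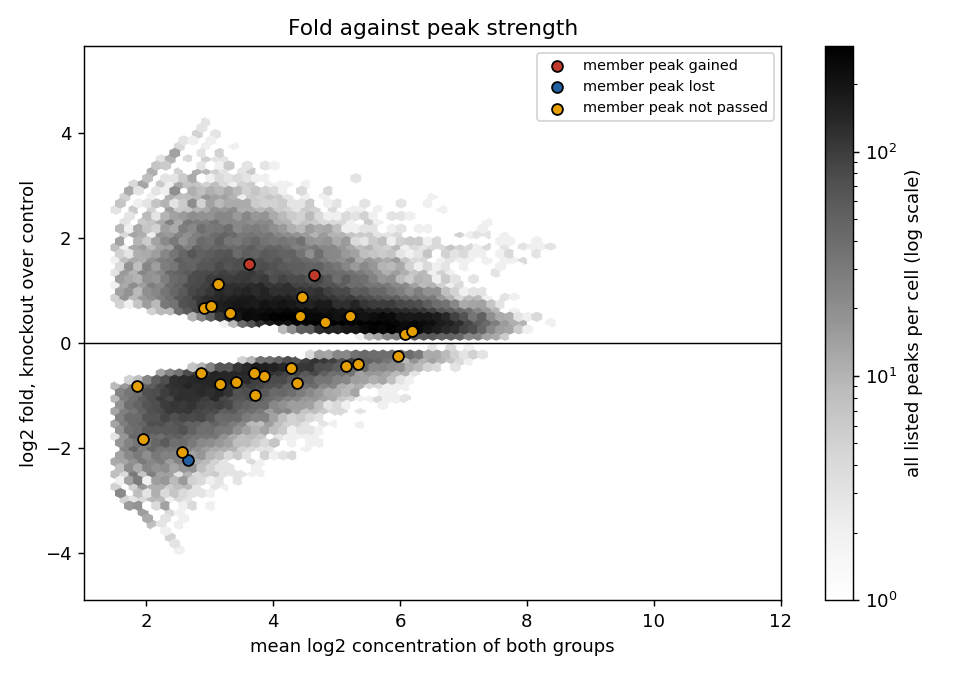
Deposited log2 fold against the mean log2 concentration. Grey cells count all listed peaks on a log scale, and dots are the 27 member peaks, red where gained, blue where lost, orange where not passed. The empty band around a fold of 0 comes from the limit of the table on p.

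**Figure D4:**
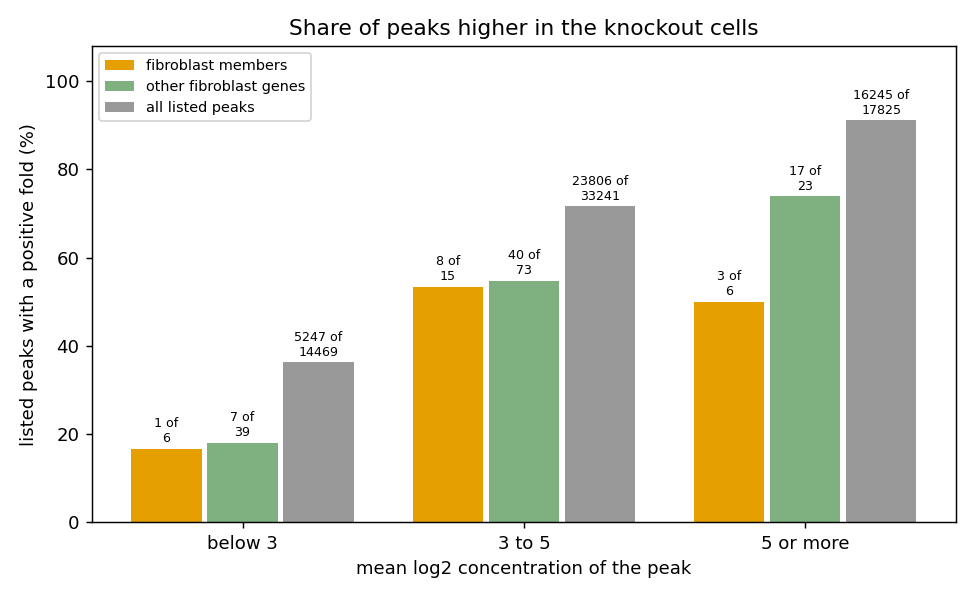
Share of listed peaks with a positive deposited fold in 3 classes of mean log2 concentration, for the fibroblast members (orange), the other fibroblast genes (green) and all listed peaks (grey), with the counts above each bar. The members stand at 1 of 6, 8 of 15 and 3 of 6 peaks.

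Summed over all 27 peaks, the signal of the fibroblast genes was nearly the same in both groups. Adding the concentrations on the linear scale gave a log2 sum of 9.19 in control and 9.21 in knockout cells, a knockout to control ratio of 1.01. The 5 promoter peaks within 1000 bases gave 7.83 and 7.79, a ratio of 0.971. Over all listed peaks the same ratio was 1.36, outside chromosome 14, which holds 3586 of the 10580 gained peaks and no member, 1.29, and over all listed promoter peaks within 1000 bases 1.33. The summed fibroblast signal was level in the authors' scale while the sum over listed peaks was higher in knockout cells. No listed member peak was at 0 in either group, and Col5a1 had none. Deposited levels ran from 2.20 to 6.08 in control and from 0.75 to 6.30 in knockout cells on the log2 scale. Replicate spread of these sums could not be computed, and the part of feeder cells in them was not tested. Fewer feeder cells and less open chromatin per cell cannot be told apart in bulk samples.

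**Figure D5:**
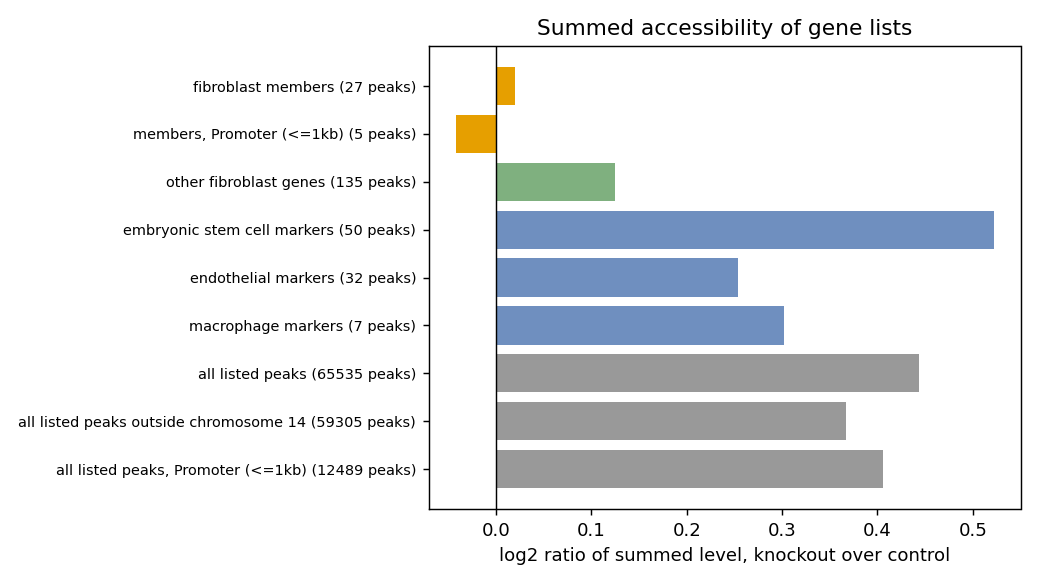
Log2 ratio of summed concentrations, knockout over control, for lists of genes and for all listed peaks. The fibroblast members stand at 0.02 and their promoters at -0.04, against 0.44 for all listed peaks. No error is shown because the values are group means.

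The zero of the scale bears on these directions. The median deposited log2 fold of listed peaks was 0.49, and relative to it 9 of the 27 member peaks were positive. When every listed peak was centred on 0.49 and retested with the implied standard errors, a step chosen after seeing the data, 0 member peaks were gained and 5 were lost, against 4.47% and 8.93% of listed peaks. The gains of Pdgfrb (centred log2 fold 0.80, adjusted p = 0.152) and Col1a1 (1.02, adjusted p = 0.254) did not pass this normal test with Benjamini-Hochberg adjustment. The loss of Prrx1 passed it (-2.72, adjusted p = 0.0141), as did Col3a1 at 45031718 (-2.58, adjusted p = 0.0269) and 45313731 (-1.25, adjusted p = 0.019), Col1a2 at 4550100 (-0.73, adjusted p = 0.0162) and the Thy1 promoter (-0.93, adjusted p = 0.0381). Subtracting a positive value moves every peak towards loss. The lost count and the count of 9 positive peaks thus depend on how far 0.49 is the true offset, which was not tested. That value is a median of listed peaks alone, and outside chromosome 14 it was 0.44. About 33540 tested peaks with a larger p are not in it. Their folds are small for their standard errors, so the median over all tested peaks may be lower.

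Other genes of fibroblast matrix and mesenchyme were also split. Of 36 further genes, 32 had a listed peak in the authors' deposited table, with 135 peaks of which 11 were gained, 6 lost and 118 did not pass. By gene, 8 of 32 had a gained and 5 a lost peak, 3 of them both, beside 28.8% and 7.19% over all listed genes. Of the folds, 64 were positive and 71 negative, with a median of -0.29. The gained share of 8.15% and the lost share of 4.44% stand beside 16.1% and 2.26% of all listed peaks, and 11.8% and 2.42% of those outside chromosome 14. Cdh11, a cadherin of mesenchymal cells, had the smallest deposited FDR in both directions, with an intronic peak lost (4.40 in control, 1.83 in knockout cells, log2 fold -2.56, FDR 0.000619) and a distal one gained (0.69 and 3.63, log2 fold 2.94, FDR 0.00733). Gained peaks in the deposited table were also at Zeb1 (log2 fold 2.11, FDR 0.0123) and Meox1 (1.15, FDR 0.0141), both mesenchymal transcription factors, and at Mmp2 (0.98, FDR 0.0237), a matrix metalloproteinase. Lost peaks were at Vim, which encodes vimentin (deposited log2 fold -1.60, FDR 0.0149), Zeb2 (-1.14, FDR 0.0315) and again Mmp2 (-1.26, FDR 0.0319). Zeb2 also had a gained peak in the deposited table (log2 fold 1.55, FDR 0.0415). At 5 or more of log2 concentration 17 of 23 peaks of these genes were positive, and their summed signal gave a ratio of 1.09. After centring and retesting, 1 of the 135 peaks was gained and 20 were lost, beside 4.47% and 8.93% of all listed peaks.

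Markers of the stem cells themselves were present. Peaks annotated as promoter were taken for Pou5f1, Sox2 and Nanog, all factors of pluripotency. Deposited log2 concentrations were 4.63 in control and 5.60 in knockout cells for Pou5f1 (log2 fold 0.98, FDR 0.0294). They were 6.83 and 7.05 for Sox2 (0.22, FDR 0.431) and 5.42 and 5.82 for Nanog (0.40, FDR 0.336). The Pou5f1 peak lay 596 bases past the start site to which it was assigned, while those of Sox2 and Nanog lay at a distance of 0. Whether it covers the main Pou5f1 promoter was not tested, so its level may not be that of this promoter. Per kilobase of peak the log2 of the mean level of both groups was 5.98 for Pou5f1, 5.28 for Sox2 and 5.38 for Nanog. On that scale the promoter peaks of Prrx1 (5.16), Lox (4.92), Pdgfrb (4.57), Col1a2 (4.40) and Thy1 (4.37) were all lower. Without division by peak width the order turned in part, since the mean log2 concentrations of Lox (6.19) and Prrx1 (6.07) were above those of Nanog (5.64) and Pou5f1 (5.19), and that of Col1a2 (5.34) was above that of Pou5f1. Over 6 stem cell markers the summed ratio of knockout to control was 1.44, with 15 of 50 peaks (30%) gained and 1 (2%) lost. Of 4 endothelial markers with 32 listed peaks, 2 peaks (6.25%) were gained and 1 (3.13%) lost (ratio 1.19), and of 3 macrophage markers only Ptprc had listed peaks, 7, of which 2 (28.6%) were gained (ratio 1.23). Over all listed peaks 16.1% were gained and 2.26% lost, with a ratio of 1.36. Outside chromosome 14 these were 11.8% and 2.42%, with a ratio of 1.29.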

How the data were processed

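ATAC-seq was run on 3 control and 3 Lmna knockout libraries, per the labels. Per the submitters' processing notes, the build was mm10. The authors' tools, per the submitters' processing notes, were Bowtie2, Trimmomatic 0.39, Picard 1.119, SAMtools, MACS2, deepTools, bedtools 2.28.0, ChIPseeker, DESeq2 and DiffBind. How they were set, and the normalization and model used, is not given in the sources used here. The authors deposited log2 concentrations, log2 folds (knockout minus control, to within 0.01), and a p-value and FDR per peak. Gene symbols, locations and distances in bases are other deposited columns of that table. It lists 65535 peaks with p up to 0.422. FDR, rank and p together gave about 99075 tested peaks. The planned edgeR fit needs counts per library, which are not used here, and was not run.

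Members and lists were chosen with earlier results of these data known. All members were named, with every changed peak, the promoter peak and otherwise the peak of smallest FDR. Of the other fibroblast genes, up to 4 genes per direction were named by smallest FDR, and of the stem cell markers the peaks annotated as promoter at Pou5f1, Sox2 and Nanog. Standard errors and 95% intervals were derived from the deposited fold and p under a normal test, which may differ from the authors' model. Sums took 2 to the power of each log2 concentration. The retest after centring was tried on simulated data only as a check of the computation. That check does not bear on the choice of the centre or on the limit of the table on p. Peaks not listed were held at a p of 1, although centring would move their folds too. The counts and adjusted p-values of the retest depend on this choice, which was not tested. Overlaps used RefSeq genes of GRCm38.p6. Computation used SciPy 1.17.1, pandas 2.3.3 and numpy 2.4.6 in Python 3.11.15, with figures from matplotlib 3.10.9.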

Additional observations from a re-analysis of the deposited data

How the results depend on the processing

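No paired analysis was possible because only group means were at hand, and so no replicate could be left out either. At an FDR of 0.01, 1 member peak was gained (Pdgfrb) and 0 were lost. Among peaks at or above the median log2 concentration of 4.01, 1 was gained and 0 were lost, and the median member fold turned to 0.205. With a minimum absolute log2 fold of 1, and within 10000 bases of a start site or annotated other than distal intergenic, the counts stayed at 2 gained and 1 lost. In the latter setting the median member fold was -0.11, as a median over genes it was -0.24, and centred on 0.49 it was -0.89. Retesting after centring gave 0 gained and 5 lost. Centring turned 3 positive folds, none past the threshold, to -0.08 (Col1a2, at 4544504), -0.31 (Prrx1 promoter) and -0.26 (Lox promoter). Depth per library is unknown, and the cause of these changes was not tested.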
